A study of Mus musculus with 6 samples.

Results

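The genes described here are those that make and break down the second messenger cyclic AMP (cAMP) in the mouse intervertebral disc (IVD). They are 6 adenylyl cyclases (Adcy3, Adcy4, Adcy5, Adcy6, Adcy7 and Adcy9) and 4 cAMP phosphodiesterases (Pde3a, Pde4a, Pde4b and Pde4d). They were chosen by name and are 10 of the 43472 gene symbols counted. Poly(A) RNA was sequenced from whole discs of the thoracic and lumbar spine of C57B6/J mice at postnatal day 20. The mutant group was Col2Cre; Adgrg6f/f, in which the floxed alleles of the receptor gene Adgrg6 (named Gpr126 in the count files) are recombined by a Cre transgene under the Col2 promoter, which per the study acts across the whole disc. The control group is labelled wild type for genotype and Col2Cre control in the titles, and the study's methods describe Cre (-) littermates, so whether the controls carried floxed alleles or the transgene is not settled by the sources used here. No agent was given to either group, and sex is not given in the labels used here. Each genotype had 3 libraries, each from discs pooled from 2 to 3 mice, so 1 library is not 1 animal.

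Adenylyl cyclases are membrane enzymes that turn ATP into cAMP when a receptor activates the stimulatory G protein Gs, and the adhesion receptor Adgrg6 can signal through Gs. cAMP then acts on protein kinase A, on the Epac exchange factors and on cyclic nucleotide-gated channels, and protein kinase A phosphorylates the transcription factor CREB. Phosphodiesterases end the signal by hydrolysing cAMP, and the PDE4 and PDE3 families carry out much of that step in many tissues. In cartilage and growing bone the pathway is best known downstream of the parathyroid hormone receptor, where cAMP restrains the maturation of chondrocytes.

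None of the 10 genes differed between mutant and control IVDs after correction for the number of genes tested. All 10 passed the filter on low counts, and the quasi-likelihood test of edgeR, adjusted by Benjamini-Hochberg across the 16152 genes tested, gave them adjusted p-values between 0.691 and 0.997. DESeq2 and limma-voom also called 0 of them after adjustment. The background was as low, since 1 of all genes tested (0.00619%) passed an adjusted p under 0.05. At an unadjusted p under 0.05, 1 of the 10 passed in edgeR, Pde4a, against 7.21% of all genes tested. Which gene passed depended on the fit, since DESeq2, edgeR without the filter and edgeR with a replicate block each called Adcy5 in place of Pde4a, as the 1 gene of the 10. Pde4a, a cAMP-specific phosphodiesterase, was 1.29 times its control level in mutant IVDs, and Pde3a, a phosphodiesterase that cyclic GMP competes for, was 0.758 times. These were also the 2 genes whose libraries did not overlap between genotypes, against 11.4% of all genes tested. The share of the 10 genes called by either measure rests on 1 or 2 genes, so it cannot be set apart from these backgrounds.

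**Figure D1:**
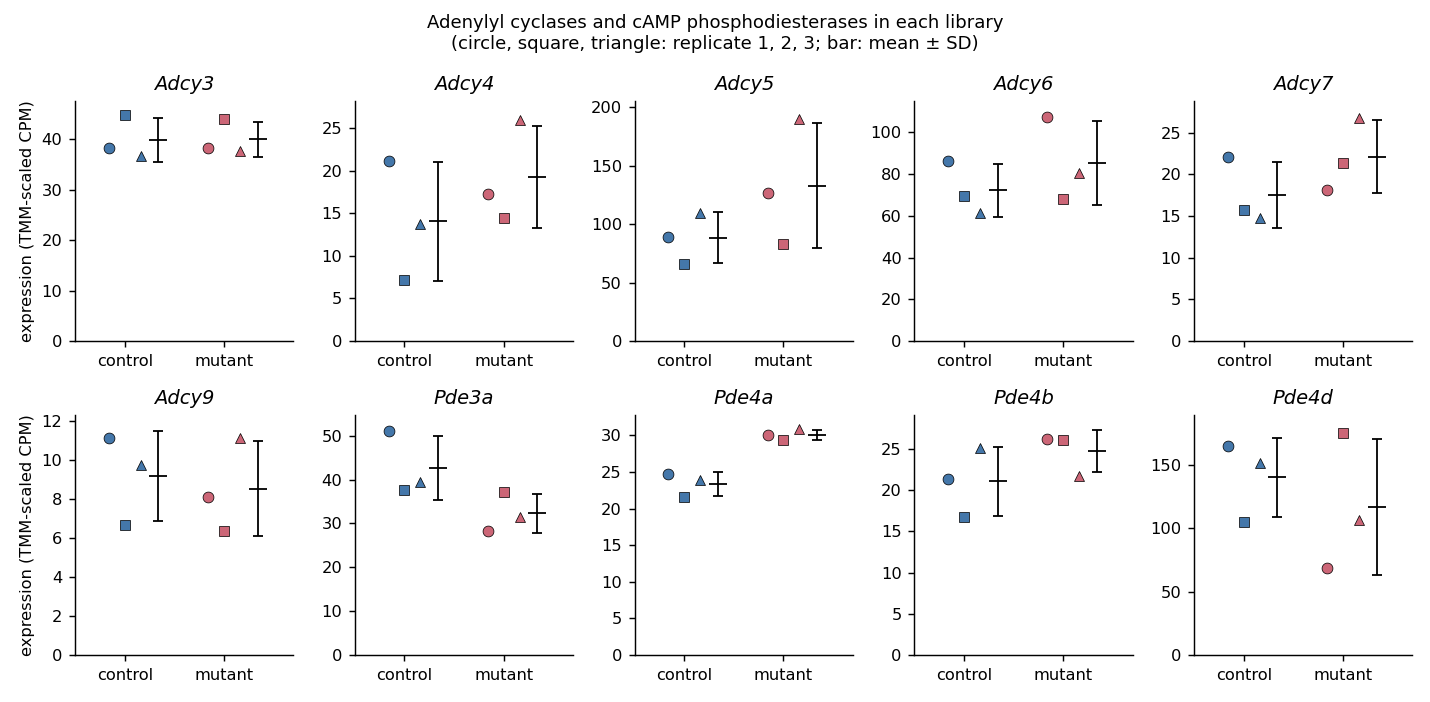
Level of each of the 10 genes in every library in CPM (reads of the gene scaled to the size of the library), controls and mutants apart, with the group mean and SD (n = 3 libraries per genotype). The 3 mutant libraries of Pde4a, at 29.4 to 30.8 CPM, sit above all controls, those of Pde3a sit below all controls, and the groups of the other 8 genes overlap.

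Libraries held 9061491 to 12017008 reads on genes, and the 10 genes took between 60 reads (Adcy9) and 2145 reads (Pde4d) in a library. Chondrocyte, nucleus pulposus and annulus markers were present in every library, as the tissue label requires. Control 1 stood apart in skeletal muscle markers, whose 8 genes summed to 4074 CPM there, to 70.6 and 100.5 CPM in the other controls and to 138 to 156 CPM in mutants. Gpr126, the targeted gene, was at 124, 108 and 94.3 CPM in controls and 138, 124 and 106 CPM in mutants (log2 fold change 0.17, SE 0.18, edgeR Benjamini-Hochberg adjusted p = 0.849). These counts are given for the gene as a whole, and the deleted exons are not given in the sources used here. They therefore do not check the genotype labels, and the reason for the level in mutants was not tested. In RNA from whole discs, fewer cells of a type and less RNA per cell cannot be told apart.

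Among the cyclases, 5 of 6 had fitted log2 fold changes above 0 and 1 below, against 7818 of all 16152 genes tested above 0. Of the 5, Adcy3 was at 0.004. The 4 other cyclases tested, outside the 10 genes, had 2 above 0 and 2 below, with a median of -0.54. Of these, Adcy1, Adcy8 and Adcy10 were at only 3.41, 2.61 and 2.09 CPM in controls. For the 6 cyclases of the 10 genes the median was 0.29 on the log2 scale, against -0.01 over all genes tested. With 1 library left out this median ranged from 0.17 (without control 2) to 0.48 (without control 1), and was 0.18 without mutant 3 and 0.19 without control 3. None of the 6 passed an unadjusted p under 0.05 in the edgeR fit of all libraries with the filter. Adcy4 and Adcy7 passed without control 1. In the edgeR fit of all libraries Adcy5 had the largest fitted difference of the 10 genes, but not in limma-voom or without control 1, control 2 or mutant 3. Adcy5 (ENSMUSG00000022840.9, chr16:35154877-35305738, plus strand), a calcium-inhibited cyclase, was at 89.4, 65.9 and 109.8 CPM in controls and at 126, 82.8 and 189 CPM in mutants. Mutants 1 and 3 were above every control, while mutant 2 lay within the control range. The means were 88.4 ± 21.9 and 133 ± 53.6 CPM (SD, n = 3 each), giving a log2 fold change of 0.59 with a 95% interval from -0.07 to 1.25 (SE 0.30). Its edgeR p was 0.0761 and its Benjamini-Hochberg adjusted p was 0.710. Without mutant 3 the log2 fold change fell to 0.24 and without mutant 2 it was 0.85. The edgeR p was 0.0437 without control 3 and 0.00956 without mutant 2, and 0.0112 without the filter on low counts, and 0.404 without mutant 3.

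Adcy6 (ENSMUSG00000022994.9, chr15:98589973-98610076, minus strand), the close relative of Adcy5, was at 86.3, 69.4 and 61.3 CPM in controls and at 107, 67.9 and 80.4 CPM in mutants. Mutant 1 was the highest library for this gene and mutant 2 lay between the controls. This gave a log2 fold change of 0.24 (SE 0.21, 95% interval -0.24 to 0.71). It was 0.072 without mutant 1 and 0.14 without control 3, and 0.40 without control 1 and 0.39 without mutant 2. Adcy6 shares 605 exon bases with the antisense transcript Gm29331, which itself took 1749 reads against 4747 for Adcy6, and without a stated strand setting reads of that stretch cannot be assigned. Gm29331 had a log2 fold change of -0.13 (SE 0.21).

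Adcy4 (ENSMUSG00000022220.14, chr14:55769057-55784095, minus strand) and Adcy7 (ENSMUSG00000031659.13, chr8:88272403-88329962, plus strand) belong to the class that G protein beta-gamma subunits can stimulate. Adcy4 was at 21.2, 7.22 and 13.8 CPM in controls and at 17.3, 14.4 and 25.9 CPM in mutants. The controls spread more than the genotypes differed, with control 2 lowest and control 1 above 2 of the mutants. The highest library was 3.59 times the lowest, the widest range of the 10 genes. The summed level of 8 endothelial markers, none at 0 in any library, was 312, 167 and 193 CPM in controls and 252, 280 and 289 CPM in mutants, and was also lowest in control 2. Its part in the values of Adcy4 was not tested.

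Adcy4 had a log2 fold change of 0.45 with a 95% interval from -0.36 to 1.26 (SE 0.36). Without control 1 it was 0.88, without control 2 it was 0.13 and without mutant 3 it was 0.18. Adcy7, a cyclase known from blood and immune cells, was at 22.0, 15.8 and 14.8 CPM in controls and at 18.1, 21.4 and 26.8 CPM in mutants. Control 1 lay within the mutant range and the other controls lay below it. The log2 fold change of Adcy7 was 0.34 (SE 0.23, 95% interval -0.17 to 0.84), and it was 0.55 without control 1 and 0.18 without mutant 3. The 7 macrophage markers summed to 47.0, 61.7 and 67.9 CPM in controls and 91.6, 52.6 and 67.6 CPM in mutants, and their part in the values of Adcy7 was not tested.

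Adcy3 (ENSMUSG00000020654.15, chr12:4133103-4213525, plus strand), a calmodulin-stimulated cyclase of primary cilia, was at 38.2, 44.9 and 36.6 CPM in controls and at 38.2, 44.0 and 37.6 CPM in mutants. The groups lay on top of each other, and both means were 39.9 CPM, with SDs of 4.38 and 3.51. The 95% interval of its log2 fold change ran from -0.36 to 0.36 in the edgeR fit of all libraries, the tightest of the cyclases. These bounds hold for that fit only. Adcy3 shares 1380 exon bases with Cenpo on the opposite strand (2076 reads against 2458 for Adcy3), and Cenpo had a log2 fold change of -0.05 (SE 0.15).

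Adcy9 (ENSMUSG00000005580.11, chr16:4287529-4420498, minus strand), the cyclase least sensitive to forskolin, was at 11.1, 6.66 and 9.77 CPM in controls and at 8.08, 6.37 and 11.2 CPM in mutants. Each genotype held libraries near the bottom and near the top of the range. Its log2 fold change was -0.11 with a 95% interval from -0.81 to 0.59 (SE 0.32). The direction of Adcy9 was not stable, with 0.10 in limma-voom and a range from -0.35 (without mutant 3) to 0.079 (without mutant 2) with 1 library left out. Adcy3 was at -0.074 in limma-voom and ranged from -0.057 to 0.091.

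The phosphodiesterases split, with 2 fitted fold changes above 0 and 2 below and a median of -0.02 on the log2 scale. With 1 library left out this median ranged from -0.18 (without control 2) to 0.13 (without mutant 1, with 3 above and 1 below), so its sign was not stable. Pde4a (ENSMUSG00000032177.17, chr9:21165714-21213248, plus strand) was at 24.7, 21.5 and 23.9 CPM in controls and at 30.0, 29.4 and 30.8 CPM in mutants. All 3 mutants were above all 3 controls, and the libraries of a genotype lay close together, with a coefficient of variation of 7.08% in controls and 2.38% in mutants. The means were 23.4 ± 1.66 and 30.1 ± 0.717 CPM (SD, n = 3 each). The log2 fold change was 0.36 with a 95% interval from 0.01 to 0.72 (SE 0.16). The edgeR p was 0.0470, and the Benjamini-Hochberg adjusted p was 0.691. With any 1 library left out the log2 fold change stayed between 0.30 and 0.42, but the edgeR p rose above 0.05 each time, up to 0.146 without control 2.

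Pde3a (ENSMUSG00000041741.10, chr6:141249269-141507448, plus strand), best known from heart, smooth muscle and platelets, was at 51.0, 37.6 and 39.5 CPM in controls and at 28.3, 37.1 and 31.6 CPM in mutants. The lowest control, at 37.6 CPM, was just above the highest mutant, at 37.1 CPM. The means were 42.7 ± 7.27 and 32.3 ± 4.45 CPM (SD, n = 3 each), with a log2 fold change of -0.40 and a 95% interval from -0.81 to 0.01 (SE 0.18). The edgeR p was 0.0552 and the Benjamini-Hochberg adjusted p was 0.691. Control 1, the highest library for Pde3a, was also the library with the skeletal muscle markers given above, and without it the log2 fold change was -0.23. Its edgeR p was then 0.263, against 0.0473 without control 2 (log2 fold change -0.49) and 0.0346 without mutant 2 (-0.50). Without mutant 1, where the skeletal muscle markers summed to only 154 CPM, the log2 fold change of Pde3a was -0.28. It was -0.375 without mutant 3 and -0.44 without control 3. In none of these fits was Pde3a under an unadjusted 0.05. The 6 smooth muscle and pericyte markers summed to 335 to 428 CPM in controls and 456 to 702 CPM in mutants. The part of skeletal or smooth muscle in the values of Pde3a was not tested. Pde3a shares 741 exon bases with Gm28523, which had 0 reads.

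Pde4d (ENSMUSG00000021699.17, chr13:108449948-109953461, plus strand), the most abundant of the 4 phosphodiesterases, was at 165, 105 and 151 CPM in controls and at 68.6, 175 and 107 CPM in mutants. The mutants held both the lowest and the highest library, and the spread within mutants (SD 53.9 CPM) exceeded the difference between the means of 140.1 and 117 CPM. The log2 fold change was -0.26 with a 95% interval from -0.96 to 0.44 (SE 0.31). It turned to 0.04 without mutant 1 and fell to -0.66 without mutant 2.

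Pde4b (ENSMUSG00000028525.16, chr4:102087543-102607259, plus strand), a phosphodiesterase known from inflammatory cells and itself inducible by cAMP, was at 21.4, 16.8 and 25.1 CPM in controls and at 26.3, 26.1 and 21.8 CPM in mutants. Mutants 1 and 2 were above all controls, whereas mutant 3 lay between them. The log2 fold change was 0.23 (SE 0.20, 95% interval -0.22 to 0.67). It was 0.082 without control 2 and 0.38 without control 3.

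**Figure D2:**
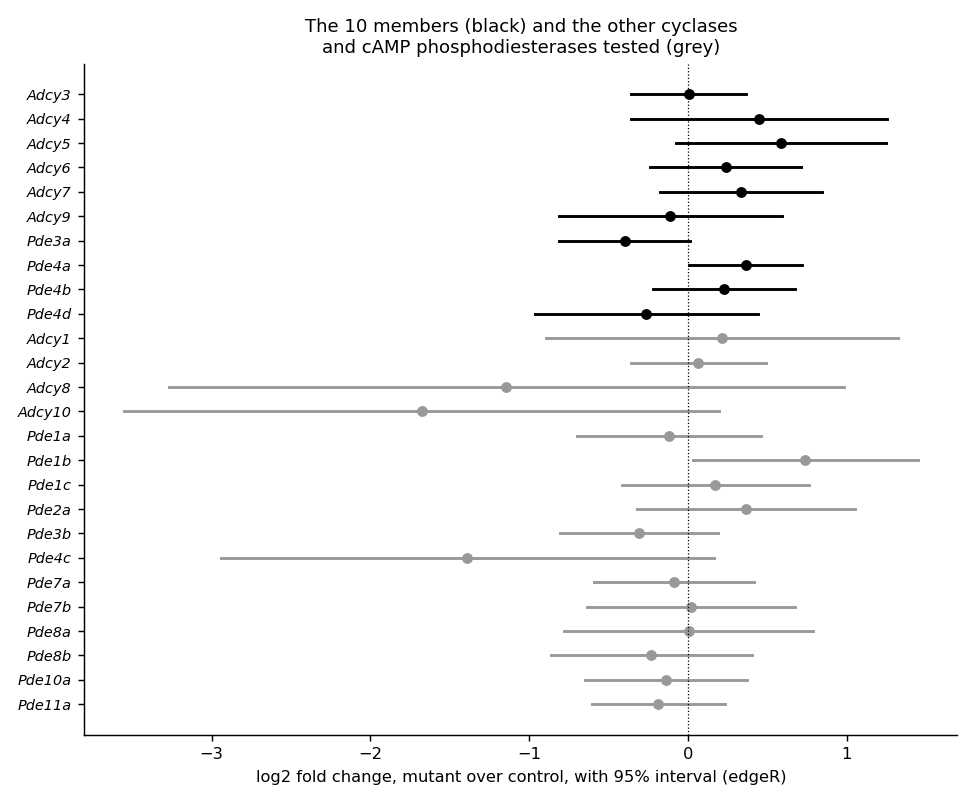
Fitted log2 fold change of mutant over control with its 95% interval (edgeR, n = 3 libraries per genotype). The 10 genes are in black, and the other cyclases and cAMP phosphodiesterases tested are in grey. Of the 10 genes, the interval of Pde4a, from 0.01 to 0.72, lies above 0. The others span 0, that of Pde3a ending at 0.01. Of the genes in grey, the interval of Pde1b, from 0.03 to 1.45, lies above 0, and the others span 0.

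Several of these ranges followed the same libraries. Mutant 3 was the highest library for 5 of the 10 genes, Adcy4, Adcy5, Adcy7, Adcy9 and Pde4a. Control 2 was the lowest for 4, Adcy4, Adcy5, Pde4a and Pde4b.

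Levels can be compared between genes only per length, and reads were divided by the summed exon length for this. In controls Adcy5 (12.3 ± 3.05 CPM per kb), Pde4d (11.7 ± 2.62) and Adcy6 (10.7 ± 1.88) were the most abundant, and their libraries overlapped (SD, n = 3 each). Every control library of Adcy6 was above every one of Adcy3 (6.39 ± 0.70 CPM per kb), and every one of Adcy3 was above every one of Pde3a (3.35 ± 0.57). Below that, Pde3a, Pde4a (3.06 ± 0.22), Adcy4 (3.01 ± 1.5), Adcy7 (2.60 ± 0.59), Pde4b (2.00 ± 0.40) and Adcy9 (1.77 ± 0.44) followed with overlap between each neighbouring pair. The disc also held other genes of these families at higher levels, with Adcy2 at 20.5 ± 1.76 and Pde1a, which also hydrolyses cyclic GMP, at 22.2 ± 7.11 CPM per kb in controls.

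**Figure D3:**
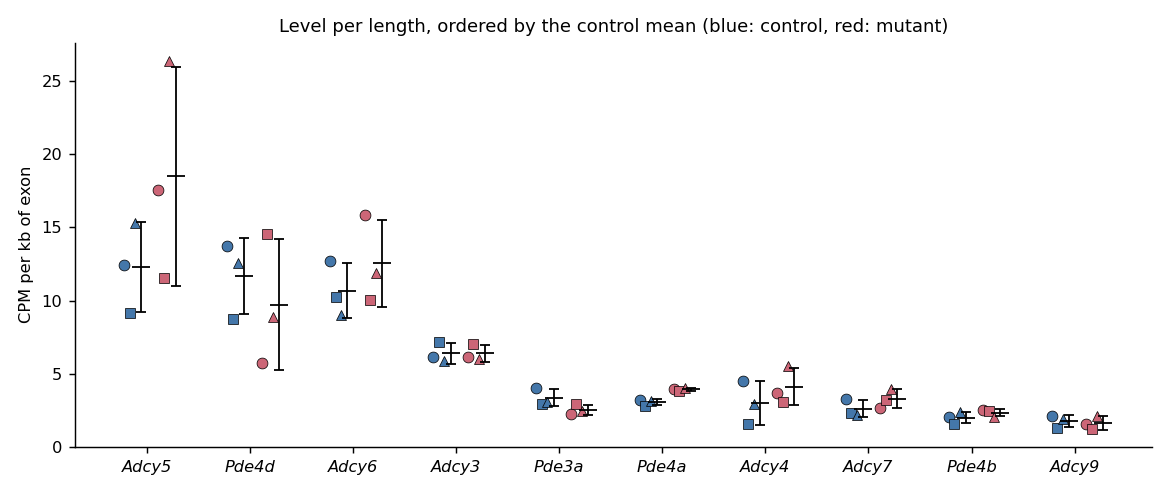
Level of each of the 10 genes in CPM per kb of exon in every library, ordered by the control mean, with the mean and SD of each genotype (n = 3 libraries). Adcy5, Pde4d and Adcy6 lead in controls, at 12.3, 11.7 and 10.7 CPM per kb, and Adcy9 is lowest at 1.77.

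Shares within a library do not depend on library size. The summed level of the 4 phosphodiesterases per kb stood below that of the 6 cyclases in every library. On the log2 scale the ratio was -0.84, -0.98 and -0.81 in controls and -1.73, -0.60 and -1.68 in mutants. The controls were close together (-0.88 ± 0.09, SD, n = 3), whereas the mutants fell on both sides of them (-1.34 ± 0.64), with mutant 2 above every control and mutants 1 and 3 below. The difference of the means, -0.46, was smaller than the SD within mutants. It was -0.26 without mutant 1, -0.82 without mutant 2 and -0.28 without mutant 3.

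Within the PDE4 family, Pde4d made up 71.1, 65.1 and 64.8% of the reads per kb in controls and 46.1, 68.7 and 58.7% in mutants. Pde4a made up 16.7, 21.0 and 16.1% in controls and 31.7, 18.1 and 26.6% in mutants. For each of these shares mutants 1 and 3 lay outside the control range and mutant 2 within it. Pde4b took 10.5 to 12.2% in controls and 11.7 to 20.1% in mutants.

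Among all cyclases per kb, the calcium-inhibited pair Adcy5 and Adcy6 made up 39.3, 37.7 and 41.4% in controls and 51.6, 34.9 and 48.3% in mutants. The beta-gamma-stimulated class of Adcy2, Adcy4 and Adcy7 made up 47.3, 44.4 and 43.0% in controls and 35.9, 50.9 and 40.5% in mutants. Mutants 1 and 3 thus had more of the Adcy5 and Adcy6 class than any control and less of the other class, and mutant 2 the reverse. Adcy9 took 3.01% in controls and 2.37% in mutants on average.

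**Figure D4:**
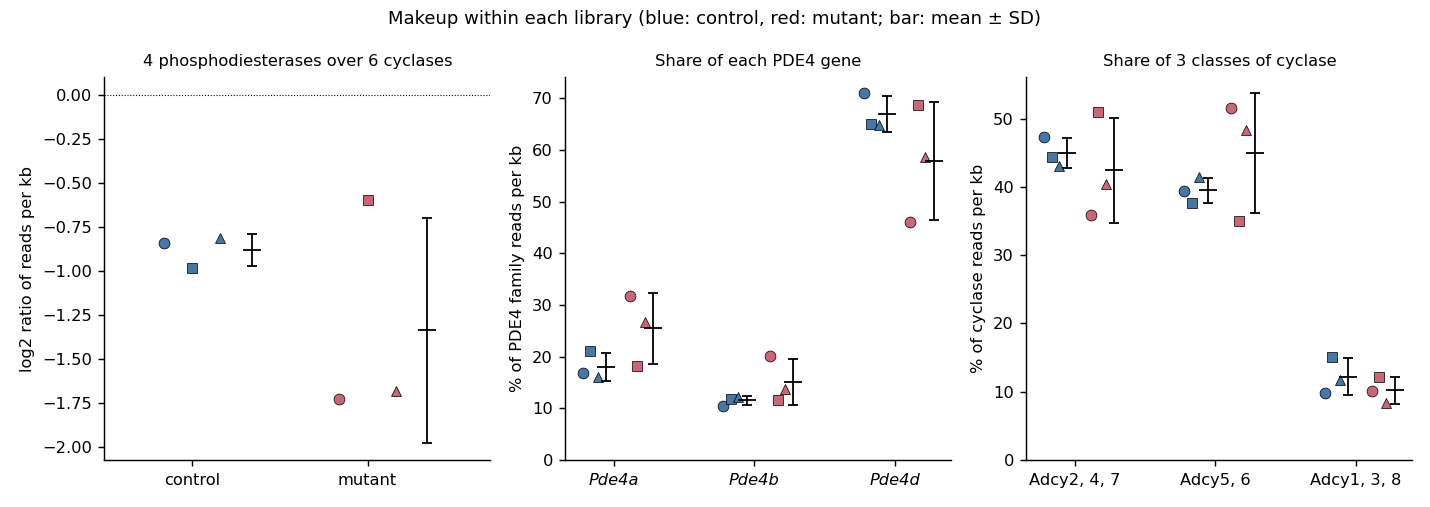
Within each library, the log2 ratio of phosphodiesterase to cyclase reads per kb, the percent of PDE4 reads per kb by gene, and the percent of cyclase reads per kb by class. Controls lie close together, while mutant 2 lies apart from mutants 1 and 3 in the ratio, at -0.60 against -1.73 and -1.68.

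Promoters of the 10 genes were searched for the cAMP response element, the sequence that CREB binds, written TGACGTCA. The search also took its shorter core, TGACG or CGTCA on the other strand, which lies within the full element too. RefSeq promoters (GRCm38.p6, 250 bases before to 50 after a start) were found for 8 of the 10 genes, with 16 starts in all. Adcy6 and Pde3a had no entry. None of the 16 held the full element, against 1.79% of all 32851 promoters, and 4 (25%) held the shorter core, against 20.8% of all. The 4 are shown for the stretch around the core, which is in capitals, since Pde4a, the gene with the clearest separation, is among them.
Adcy7, chr8:88282924-88283008, plus strand: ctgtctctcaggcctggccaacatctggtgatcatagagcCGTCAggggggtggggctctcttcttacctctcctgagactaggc
Adcy9, chr16:4420478-4420562, minus strand: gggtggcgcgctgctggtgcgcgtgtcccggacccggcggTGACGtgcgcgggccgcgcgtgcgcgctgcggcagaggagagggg
Pde4a, chr9:21184011-21184095, plus strand: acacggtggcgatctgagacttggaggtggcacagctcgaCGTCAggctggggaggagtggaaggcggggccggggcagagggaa
Pde4b, chr4:102421481-102421565, plus strand: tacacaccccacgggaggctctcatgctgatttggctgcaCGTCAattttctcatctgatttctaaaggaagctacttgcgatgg

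The core lay 28 bases before the start in Adcy7, 24 in Adcy9, 50 in Pde4a and 34 in Pde4b. In Adcy7 and Pde4a it was at 1 of 3 annotated starts and in Pde4b at 1 of 4. Of the 4 genes, Adcy7, Pde4a and Pde4b had fitted log2 fold changes of 0.34, 0.36 and 0.23, and Adcy9 one of -0.11. The genes with promoters but no core split alike. Adcy3, Adcy4 and Adcy5 were at 0.004, 0.45 and 0.59, and Pde4d at -0.26. The match is a description of the letters in these windows and not of binding.

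The rest of the pathway was read from 9 lists of 83 genes, of which 79 were tested and 0 passed an adjusted p under 0.05 in edgeR. At an unadjusted p under 0.05, 13 of the 79 passed (16.5%, 8 higher and 5 lower in mutants), against 7.21% of all genes tested. Of the 13, 6 came from the list of genes that cAMP can induce. The lists were chosen with earlier results of these data known, so the shares cannot be weighed against each other. Groups did not overlap for 9 of the 79 (11.4%), the same share as over all genes tested (11.4%). By unadjusted p they numbered 12 in DESeq2 and 15 in limma-voom. With any 1 library left out, 3 of the 13, Fos, Fosb and Hcn2, stayed under 0.05.

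Upstream of the cyclases, none of 7 tested G alpha subunits passed, nor did Ric8b, a chaperone of G alpha subunits. Gnas, which encodes the stimulatory subunit and was the most abundant, was at 1380 ± 127 CPM in controls and 1486 ± 278 in mutants (SD, n = 3). Of 7 tested Gs-coupled receptors, Pth1r, the parathyroid hormone receptor, passed. Pth1r was at 1092, 798 and 621 CPM in controls and at 512, 475 and 549 CPM in mutants, so every mutant was below every control. Its log2 fold change was -0.71 (SE 0.24, edgeR unadjusted p = 0.0147, Benjamini-Hochberg adjusted p = 0.676). With 1 library left out the log2 fold change of Pth1r ranged from -0.88 to -0.45. The edgeR unadjusted p was above 0.05 without control 1 or without mutant 2, reaching 0.0704. The 4 hypertrophic chondrocyte markers summed to 436 to 982 CPM in controls and 220 to 460 CPM in mutants, and their part in the level of Pth1r was not tested.

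Among the other enzymes, 0 of 4 cyclases and 1 of 12 phosphodiesterases passed. Adcy2 had a log2 fold change of 0.07 (SE 0.19) and Pde1a one of -0.12 (SE 0.26). Pde1b, a calmodulin-dependent phosphodiesterase at 7.40 CPM in controls and 12.5 CPM in mutants, had a log2 fold change of 0.74 (edgeR unadjusted p = 0.0424, Benjamini-Hochberg adjusted p = 0.691). Its unadjusted p was above 0.05 without control 1, control 2, mutant 1 or mutant 3.

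Of the targets of cAMP, none of 9 protein kinase A subunits and inhibitors passed. Prkar1a, the regulatory subunit with the most reads, was at 81.6 ± 7.46 CPM in controls and 99.9 ± 20.5 in mutants (SD, n = 3). Among 9 other cAMP sensors, the pacemaker channel gene Hcn2 passed with a log2 fold change of 1.15 (3.58 against 7.96 CPM), and Popdc3, which encodes a cAMP-binding membrane protein, passed with -1.70 at no more than 5.94 CPM in any library. Rapgef3, which encodes Epac1 and had the most reads of that list, was at 43.8 CPM in controls and 52.2 CPM in mutants. Of 11 anchoring proteins of protein kinase A, Akap6 passed (log2 fold change -1.15, 14.2 against 6.38 CPM), with the most read, Akap8l, at 130.4 and 130.5 CPM. The unadjusted p of Popdc3 and of Akap6 was above 0.05 without control 3 and without mutant 1. That of Popdc3 was also above 0.05 without mutant 2, and that of Akap6 without mutant 3. With 1 library left out the log2 fold change ranged from -1.66 to -0.49 for Akap6 and from -2.01 to -1.11 for Popdc3. Of 8 genes of the CREB family and its coactivators, the acetyltransferase Ep300 passed with a log2 fold change of 0.58 (22.4 against 33.7 CPM), while Crebbp had one of 0.17 (SE 0.18). The unadjusted p of Ep300 was above 0.05 without control 2 or mutant 3.

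Among genes that cAMP can induce, 6 of 11 tested passed an unadjusted p under 0.05 in edgeR, 5 higher and 1 lower. Of all genes tested 7.21% passed (467 higher and 697 lower of 16152). Of the 11, 7 had log2 fold changes above 0 and 4 below. The list was chosen with earlier results of these data known, so its share cannot be weighed against the background. Fos, an immediate early gene, was at 48.1, 14.8 and 28.5 CPM in controls and 236, 69.0 and 47.8 CPM in mutants. Mutant 1 was far above the others and mutant 3 was level with control 1. Mutant 1 also had the highest sum of 8 neuron and glia markers, at 3567 CPM against 222 to 1661 in controls and 910 and 2491 in the other mutants, of which Mbp, a myelin gene, made up 3317 CPM. Of the neuronal markers in that list, Tubb3 had 0 reads in every library, for a reason that was not tested. Rbfox3, Syt1 and Snap25 were at 10.7, 7.15 and 1.36 CPM in controls and 5.20, 2.52 and 1.10 CPM in mutants on average. In mutant 1 the sum of 8 neutrophil and precursor markers was 153 CPM. It was 16.2 to 59.3 in controls, with Prtn3 at 0 in control 1, and 32.7 and 54.3 in the other mutants. The part of these cells in the values of Fos and Fosb was not tested. Fosb was at 14.3, 9.55 and 11.4 CPM in controls and 143, 36.3 and 14.1 CPM in mutants, in the same order of mutants. The log2 fold changes of Fos and Fosb were 1.95 and 2.45, and fell to 0.97 and 1.14 with the library that mattered most, mutant 1, left out.

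The phosphatase gene Dusp1, with the most reads of that list, was at 207 ± 27.3 CPM in controls and 301 ± 43.4 in mutants (SD, n = 3; log2 fold change 0.54). The clock gene Per1 was at 60.8 ± 25.0 CPM in controls and 122 ± 54.3 in mutants (SD, n = 3). The nuclear receptor gene Nr4a1 had a log2 fold change of 0.36. Ppargc1a, a transcriptional coactivator and the gene that was lower, was at 2.77 CPM in controls and 0.683 CPM in mutants. The edgeR Benjamini-Hochberg adjusted p-values of these genes were 0.629 or above. Without mutant 1, none of Per1, Dusp1, Nr4a1 and Ppargc1a was under an unadjusted 0.05. The call was also lost without control 2 for Per1, Dusp1 and Nr4a1, without control 3 for Per1, Nr4a1 and Ppargc1a, without control 1 for Nr4a1, without mutant 2 for Ppargc1a, and without mutant 3 for Dusp1 and Nr4a1. Fos and Fosb are also induced by many signals other than cAMP.

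**Figure D5:**
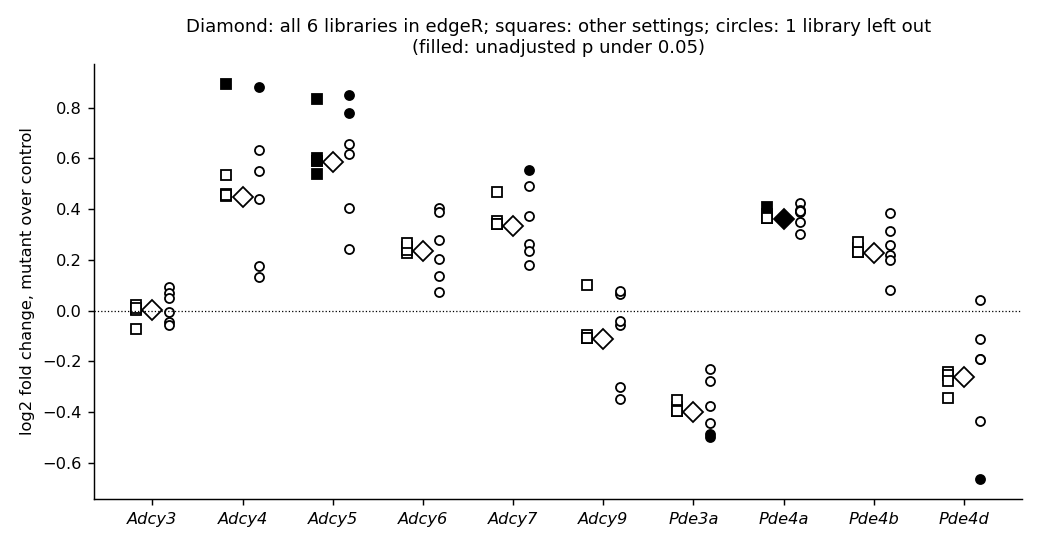
Fitted log2 fold change of each of the 10 genes under the main edgeR fit and 11 alternatives (other normalization, filter, test or block, and each library left out). Pde4a stays between 0.30 and 0.42 and Pde3a between -0.50 and -0.23, while Adcy3, Adcy9 and Pde4d take values on both sides of 0.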

How the data were processed

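Poly(A) RNA-seq libraries from 3 pools of mutant and 3 pools of control IVDs were used, each pool from 2 to 3 mice. The authors deposited raw read counts per gene symbol for each library. The submitters' processing notes name STAR 2.5.3a, HTSeq and DESeq2 with mm10 and GRCm38, whereas the study's methods describe HISAT2, StringTie and Ballgown, and strand setting and roles are not given in the sources used here. Rows for reads without a gene were left out (no feature 39.4 to 43.3% and not aligned 12.0 to 18.9% of each library). A deposited table of the authors' own fold changes and p-values for a subset of genes was not used. Two-group fits were made with edgeR 4.0.16 in R 4.3.3 (TMM, filterByExpr with a count minimum of 10, quasi-likelihood test, Benjamini-Hochberg over all 16152 tested genes), with no covariate. CPM used TMM-scaled library sizes, and CPM per kb divided by exon length in GENCODE M21 (GRCm38), from which coordinates were taken. Alternatives were DESeq2 1.42.0, limma-voom (limma 3.58.1), RLE size factors, no filter, a replicate block and leaving out each library. The fits were tested on simulated counts. All 10 genes were named. Of the pathway lists, the genes under an unadjusted p of 0.05 and the most read gene of each were named, with genes overlapping a member and Gpr126, and 1 gene that met this rule is not reported here. The genes and lists were chosen with earlier results of these data known. Libraries are separate pools by the labels, and 3 against 3 limits precision to intervals such as those given. Counts of genes past a p refer to the spread between pools.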

Additional observations from a re-analysis of the deposited data

How the results depend on the processing

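The median log2 fold change of the 10 genes and the log2 ratio of phosphodiesterase to cyclase reads kept their direction in every alternative run. The median, 0.23, ranged from 0.11 (without control 2) to 0.33 with 1 library left out and was 0.15 without mutant 1, and the difference in the ratio, -0.46, ranged from -0.82 to -0.26. In the fits, 0 of the 10 genes passed an adjusted p of 0.05. The number at an unadjusted p under 0.05 was 1 and became 3 in limma-voom (Adcy4, Adcy5 and Pde4a), and ranged from 0 to 3 with 1 library left out. The number with groups that do not overlap was 2, was 1 without a filter on low counts, and ranged from 1 to 4 with 1 library left out. Pathway genes at an unadjusted p under 0.05 numbered 13, and 7 to 15 with 1 library left out. Adcy5 was under 0.05 in 6 of 11 alternatives and Pde4a in 2 of 11. The log2 fold change of Adcy3 was -0.074 in limma-voom and ranged from -0.057 to 0.091 with 1 library left out. Adcy9 turned to 0.10 in limma-voom and ranged from -0.35 to 0.079, and Pde4d from -0.66 to 0.042. The cause was not tested. Same-numbered libraries correlated at 0.159, -0.132 and 0.101 in their deviations. With 3 libraries a genotype these values cannot settle whether the numbers pair them. With a replicate block in edgeR, Adcy5 alone of the members was under an unadjusted 0.05, at 0.0255, and Pde4a was at 0.0911. The block gave 1002 calls over all genes in place of 1164. Control 1 correlated best with mutant 1 (0.159), whereas control 3 correlated best with mutant 2 (0.179), not with its own number. Over all genes, the count past an adjusted p of 0.05 was 1 in edgeR, 58 in DESeq2, 245 without a filter on low counts and 0 to 31 with 1 library left out. The count at an unadjusted 0.05 was 2276 without the filter, 2427 without control 1 and 618 without control 3. With 3 libraries a genotype, the 95% intervals reached log2 fold changes of 0.36 for Adcy3 and 1.26 for Adcy4.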
